A study of Mus musculus with 101 samples.

Results

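Nras, Hras, Braf and Nf1 are the rows described here, 4 of 43513 gene symbols in the deposited copy-number matrices. They were taken by symbol, and each symbol had 1 row. The Ras proteins Nras and Hras are small GTPases that pass growth-factor signals from receptors at the membrane when bound to GTP. Braf is a Raf kinase that active Ras recruits, and it starts the relay through the MEK and ERK kinases. Nf1 encodes neurofibromin, a GTPase activator that returns Ras to its inactive state, so it is the inhibitor of the set. Activating changes of Ras and Raf genes and loss of Nf1 are both known in human cancers.

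Copy number was measured by shallow sequencing of genomic DNA from 98 mammary tumours of mice and from 3 spleens. The tumours fell into KB1(L1363P)P (n = 24), KB1P (n = 31), KB2P (n = 25) and KP (n = 18). Of the 31 KB1P tumours 10 have titles that read KB1PM, a name the labels do not explain, and 1 has a description that names another model. By the names commonly given to these mouse models, all 4 groups share the loss of the tumour suppressor Trp53, KB1P adds loss of Brca1, KB2P adds loss of Brca2, and KB1(L1363P)P carries a Brca1 missense variant in the region that binds Palb2. KP is the group with Trp53 loss and no engineered Brca gene, and serves as the comparison for the other 3. In these models Cre is driven by a keratin promoter active in epithelial cells, and the labels give no age. They leave unstated whether each tumour had a mouse of its own, so p-values measure only the spread between these tumours. Histology differed by genotype: 12 sarcomatoid tumours, 9 carcinosarcomas and 3 adenocarcinomas in KB1(L1363P)P, 1, 1 and 29 in KB1P, 25 adenocarcinomas in KB2P, and 10, 2 and 6 in KP. Sarcomatoid tumours are made of spindle-shaped cells, and carcinosarcomas hold both epithelial and spindle-shaped parts. Each tumour is called by its genotype and a replicate number, which only names it.

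The segment value is the log2 ratio of a gene after neighbouring bins were joined into segments, with 0 as the level of the authors' neutral state. The copy score is a whole number with 2 as neutral, and for the 4 genes it equalled 2 multiplied by the unlogged segment value, rounded, in 404 of 404 cells. A score above 2 is called a gain here and needed a segment value of at least 0.33 among the 4 genes. A score below 2 is called a loss and needed at most -0.42. In the spleens no value of the 4 genes exceeded 0.0037 in size and there were 0 calls. In tumours, fewer tumour cells with a change and a smaller change per cell cannot be told apart, and the read depth is unknown. The noise between neighbouring log2 ratios was 0.039 to 0.097 in tumours. KB2P replicates 10 and 12 had nearly the same profile (r = 0.986). Libraries came in 9 series by the prefix of the sample names, and only series 5289 and 5490 held more than 1 genotype.

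In mouse build GRCm38.p6, Nras lies on chromosome 3 at 103058285 to 103067914, and Hras on chromosome 7 at 141189934 to 141194019. Braf lies on chromosome 6 at 39603231 to 39725658, and Nf1 on chromosome 11 at 79339590 to 79581609. These spans are whole genes with exons, introns and untranslated regions, and a value describes the bins across the gene. Braf starts 22 Mb past the end of Met, the receptor gene for hepatocyte growth factor, on the same chromosome. Nf1 starts 9.7 Mb past the end of Trp53 and lies 21.9 Mb before Brca1. Yap1, a co-activator of the Hippo pathway, is on chromosome 9. Hras ends 4.1 Mb before the last placed gene of chromosome 7, and the other 3 genes are further from a chromosome end on that side.

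Braf was the gene of the set most often gained. It had a gain in 23 of 98 tumours and a loss in 3. Nf1 had 15 gains and 8 losses, Nras 7 gains and 8 losses, and Hras 6 gains and 14 losses. Gains of the inhibitor Nf1 thus outnumbered its losses, and losses of Hras outnumbered its gains. Over all genes, a mean of 11.3% of tumours had a gain and 12.8% a loss. Braf gains, at 23.5%, were above the mean for gains, and Braf losses, at 3.06%, were below that for losses. Nf1 gains, at 15.3%, and Hras losses, at 14.3%, lay nearer to those means. Nf1 losses stood at 8.16% and Hras gains at 6.12%, both below. Of the 98 tumours, 49 had a call at 1 or more of the 4 genes, and 2 tumours, both KB1P, had a call at all 4.

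**Figure D1:**
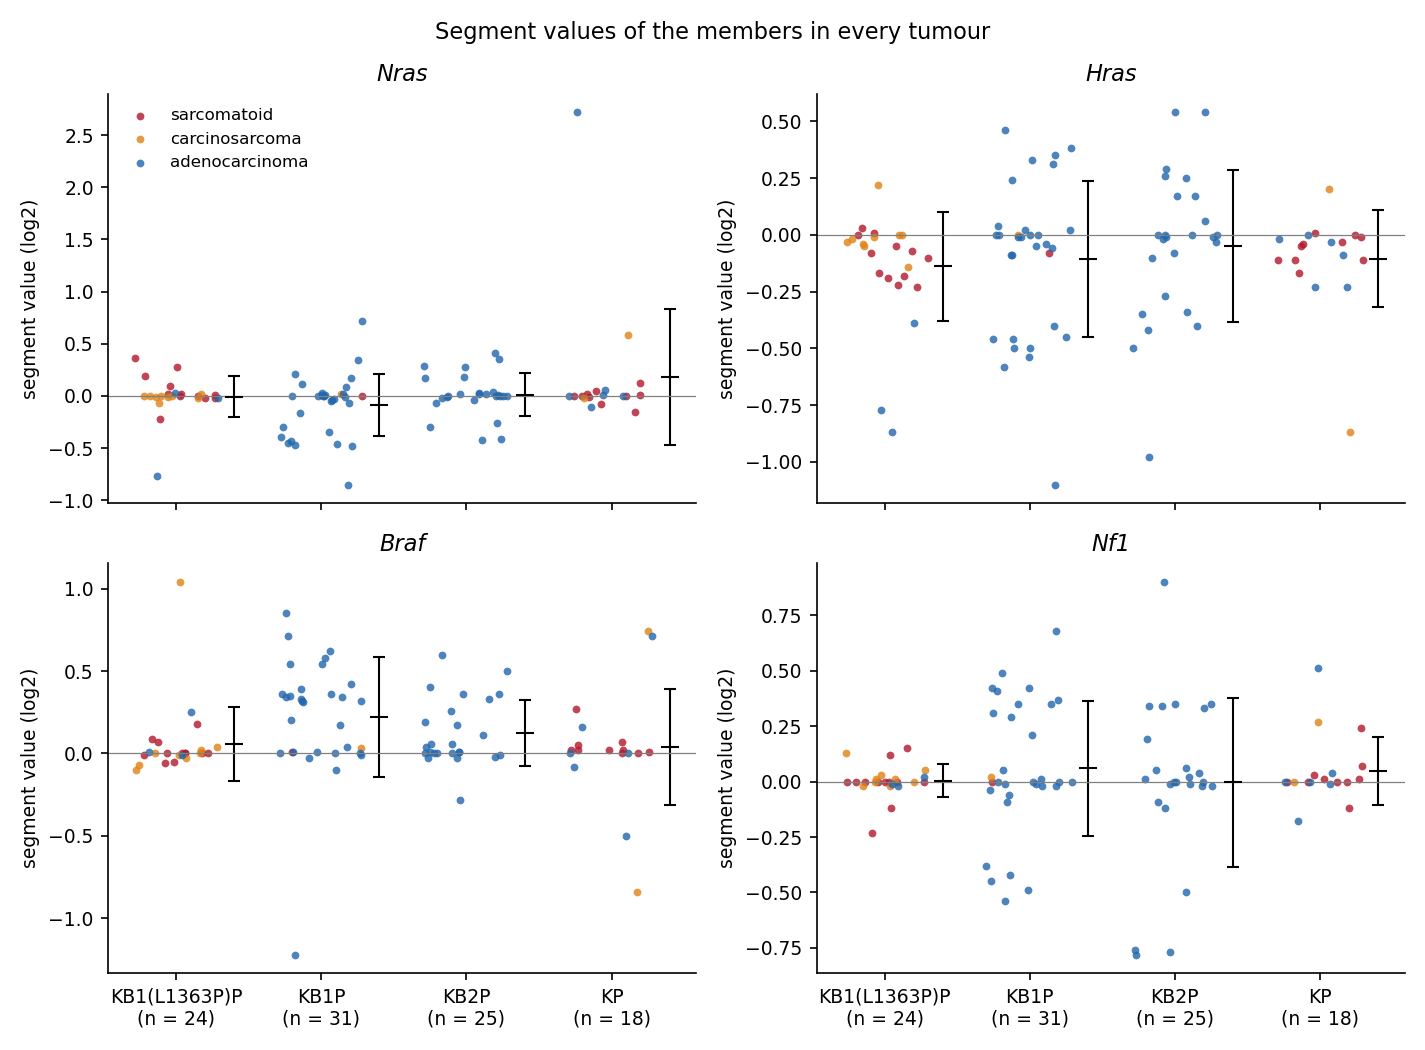
Segment values (log2, vertical axes) of the 4 genes in every tumour by genotype, with colour for histology and the mean ± SD in black. The highest point is Nras in 1 KP adenocarcinoma at 2.72, and the lowest is Braf in 1 KB1P adenocarcinoma at -1.22.

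The calls lay mainly in KB1P and KB2P tumours. At least 1 of the 4 genes was called in 4 of 24 KB1(L1363P)P, 23 of 31 KB1P, 17 of 25 KB2P and 5 of 18 KP tumours. Braf was gained in 1 KB1(L1363P)P, 14 KB1P, 6 KB2P and 2 KP tumours. Its losses numbered 0, 1, 0 and 2 in the same order. Nf1 was gained in 0 KB1(L1363P)P, 8 KB1P, 6 KB2P and 1 KP tumours, and lost in 0, 4, 4 and 0. The genome-wide level of change differed in the same way: the mean share of tumours with a gain of a gene was 2.08% in KB1(L1363P)P, 18.2% in KB1P, 17.9% in KB2P and 2.44% in KP, and for losses it was 4.94%, 18.3%, 19.1% and 5.29%. Whether the genotype differences at the 4 genes go beyond these genome-wide shares was not tested.

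**Figure D2:**
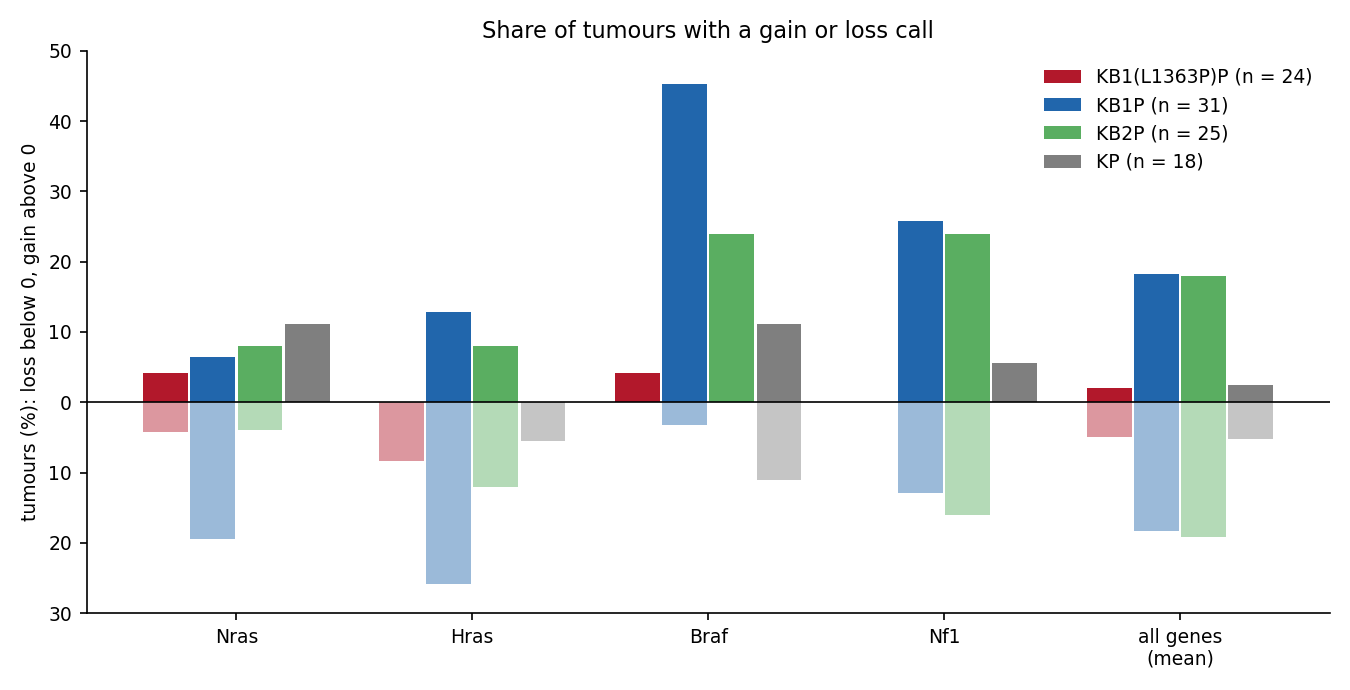
Percent of tumours with a gain (bars above 0) or a loss (paler bars below 0) for each gene and, at the right, the mean over all genes, by genotype. Braf gains reached 45.2% of KB1P tumours, against a mean of 18.2% over all genes in that genotype.

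By two-sided Fisher's exact tests with Benjamini-Hochberg adjustment over all genes, 2 of 48 tests of the 4 genes passed 0.05. Braf was gained in 1 of 24 KB1(L1363P)P tumours, against 14 of 31 KB1P tumours (adjusted p = 0.00832). Nf1 was gained in 0 of 24 KB1(L1363P)P tumours, against 8 of 31 KB1P tumours (adjusted p = 0.0345). In that comparison 21.2% of all genes were called for gain frequency, every one of them less often gained in KB1(L1363P)P. Neither call passed without the tumours titled KB1PM and the 1 with the other description, when Braf was gained in 6 of 20 KB1P tumours (adjusted p = 0.161) and Nf1 in 6 of 20 (adjusted p = 0.0592). Of the KB1P tumours, 7 of the 10 titled KB1PM and 7 of the other 21 had a Braf gain. Neither call passed in adenocarcinomas alone, where only 3 KB1(L1363P)P tumours remained (adjusted p = 1.0 for both). Within library series 5289 the Braf gain stood at 1 of 20 KB1(L1363P)P against 4 of 10 KB1P tumours (adjusted p = 0.378) and the Nf1 gain at 0 of 20 against 1 of 10 (adjusted p = 0.671). The Braf gain in 14 of 31 KB1P against 2 of 18 KP tumours did not pass (adjusted p = 0.138, with 12.4% of genes called). No test passed for Nras or Hras, nor for any loss of the 4 genes. The share of all genes called for gain frequency was 11.4% in KB1(L1363P)P against KB2P, 7.62% in KB2P against KP and 0.00919% in KB1P against KB2P, the last also in adenocarcinomas. For loss frequency it was 3.63% in KB1(L1363P)P against KB1P, 5.36% in KB1(L1363P)P against KB2P, 4.68% in KB1P against KP and 3.2% in KB2P against KP. Between KB1(L1363P)P and KP 0.0% of genes were called for either.

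Calls were rare in sarcomatoid tumours, at the 4 genes as over all genes. Among 23 sarcomatoid tumours, 1 tumour had a call at the 4 genes, the Nras gain of KB1(L1363P)P replicate 16 at 0.36. Among 12 carcinosarcomas, 3 tumours had 5 calls, and among 63 adenocarcinomas, 45 tumours had 78. Over all genes, 1.35% of sarcomatoid values were gains and 0.262% losses, against 1.09% and 0.0% over the 4 genes. In carcinosarcomas 2.64% were gains and 6.27% losses over all genes, against 6.25% and 4.17% over the 4 genes. In adenocarcinomas 16.5% were gains and 18.7% losses over all genes, against 18.7% and 12.3% over the 4 genes. KB1P and KB2P held nearly only adenocarcinomas, so genotype and histology cannot be told apart in the counts of these groups.

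Nras, a Ras GTPase, had 1 value far above all others. In KB1(L1363P)P tumours its segment values ran from -0.77 to 0.36 with a median of 0.00, in KB1P from -0.85 to 0.72 with a median of 0.00, in KB2P from -0.42 to 0.41 with a median of 0.00, and in KP from -0.15 to 2.72 with a median of 0.00. The 4 groups overlapped, and 63 of 98 values lay within 0.1 of 0. The group means were -0.01 ± 0.20, -0.09 ± 0.30, 0.01 ± 0.21 and 0.18 ± 0.65 in that order (SD, n = 24, 31, 25 and 18). By limma the mean of KB1P was 0.27 below that of KP (difference -0.27 ± 0.10, SE, adjusted p = 0.0668), where 13.5% of all genes were called, and that of KB1(L1363P)P was 0.18 below it (-0.18 ± 0.11, SE, adjusted p = 0.996), where 0.0% were called. Without KP replicate 7 these differences were -0.12 and -0.03. Neither passed, and no other Nras difference between genotypes did. Over the 4 genes and 6 genotype pairs, 0 of 24 limma tests passed and 3 had an unadjusted p under 0.05, this one between KB1P and KP and 2 of Braf.

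The high value belonged to KP replicate 7, an adenocarcinoma, at 2.72 with a copy score of 13 and an unsmoothed log2 ratio of 2.96. The raised stretch covered 8.79 Mb of chromosome 3, from 94310132 to 103099720, with 154 placed genes from Them4 to Ampd1, and Nras was the last gene but 1 in it. It had 2 steps, at 2.32 and 2.72, and the values next to it were -0.78 and -0.77. The chromosome's median in this tumour was -0.78, which made Nras 3.50 higher than its own chromosome. The stretch also held Mcl1, an anti-apoptotic Bcl2 family gene, and Notch2, a Notch receptor, which were picked out after the values were seen. A further 2 stretches of chromosome 3 reached a segment value of 1 in this tumour, 1 of 2 genes at -21.5 to -21.3 Mb from the start of Nras and 1 of 8 genes at 28.8 to 29.8 Mb from it, the second with values up to 3.22. The same tumour had Nf1 at 0.51, Hras at -0.02 and Braf at -0.08.

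**Figure D3:**
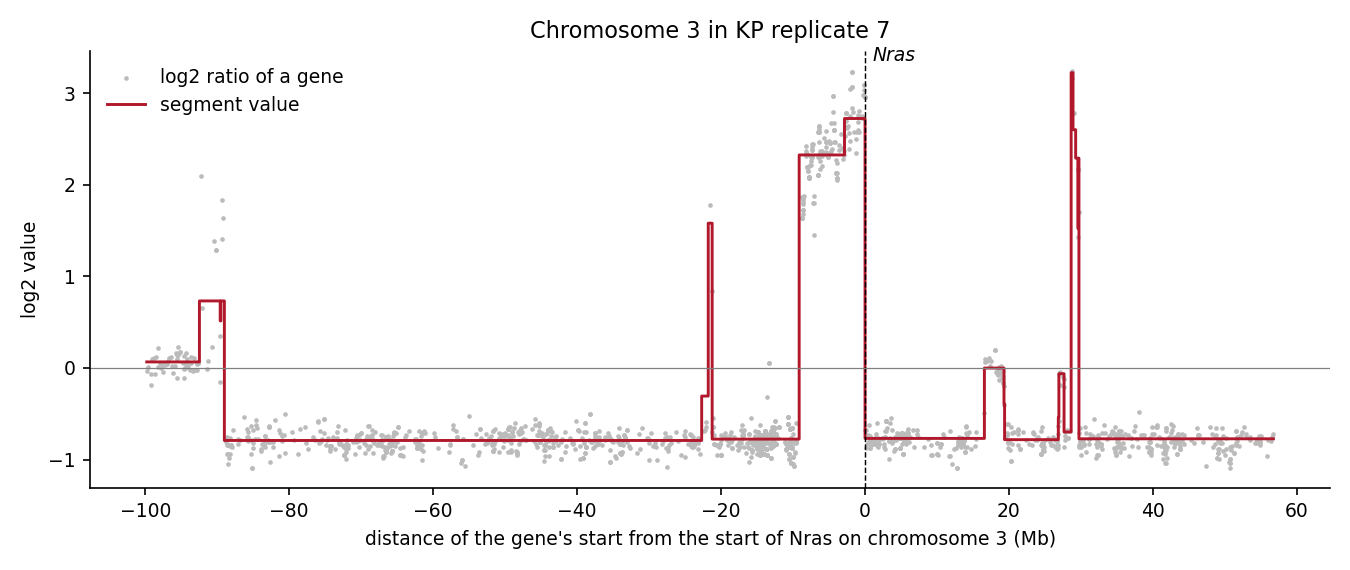
Chromosome 3 in KP replicate 7: log2 ratios of single genes (grey) and segment values (red line) against the distance of each gene's start from the start of Nras in Mb. The raised stretch of 8.79 Mb ends just past Nras, on a chromosome whose median is -0.78.

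The other 6 Nras gains lay between 0.34 and 0.72. Their runs, meaning the unbroken stretches of placed genes with a gain around Nras, were 14.7 Mb in KB1P replicate 4, 19.2 Mb in KP replicate 3, 20.5 Mb in KB1P replicate 12, 28 and 30.2 Mb in KB2P replicates 4 and 24, and the whole chromosome (157.0 Mb) in KB1(L1363P)P replicate 16. The run in KB1P replicate 4 began at Them4, as did that in KP replicate 7, and these were the only 2 of the 7 to begin there. Of the 8 Nras losses, 6 were in KB1P, with values from -0.85 to -0.43 and runs of 60.9 to 123.0 Mb. Of all 8 losses 5 covered more than 50% of chromosome 3, and the shortest was the 11.2 Mb of KB2P replicate 22.

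Hras, the Ras GTPase near the end of chromosome 7, was lost more often than gained in each genotype. Its segment values ran from -0.87 to 0.22 with a median of -0.06 in KB1(L1363P)P, from -1.10 to 0.46 with a median of -0.01 in KB1P, from -0.98 to 0.54 with a median of -0.01 in KB2P, and from -0.87 to 0.20 with a median of -0.05 in KP. The groups overlapped, and none of the 6 genotype differences, from -0.09 to 0.06, passed limma's test (adjusted p from 0.53 to 0.997). Of the 20 Hras calls, 17 ran on to the last placed gene of the chromosome, 5 of 6 gains and 12 of 14 losses, and 3 of those losses covered the whole of chromosome 7. The deepest loss was -1.10 in KB1P replicate 13, inside a run of 129.0 Mb.

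Within KB1(L1363P)P, Hras differed by histology. The 3 adenocarcinomas had -0.77, -0.87 and -0.39 (replicates 7, 19 and 21), and the 12 sarcomatoid tumours ran from -0.23 to 0.03 with a median of -0.09. The 2 sets did not overlap, and all 3 adenocarcinomas were below every sarcomatoid tumour. For how many of all genes the 2 sets did not overlap was not counted. By limma the sarcomatoid mean was 0.57 above the adenocarcinoma mean (± 0.10, SE, adjusted p = 0.000167), with 32.4% of all genes called in that comparison. In their titles replicates 6 and 7 share a tumour number, as do replicates 18 and 19, and the sarcomatoid tumours of these pairs, replicates 6 and 18, had Hras at -0.22 and -0.10. With the title number as a block the Hras difference was 0.57 (limma adjusted p = 0.000124). Without the first tumour of each shared number, which kept all 3 adenocarcinomas, it was 0.58 (adjusted p = 0.000222). Without replicates 7, 19 and 24, the second tumour of each shared number, it was 0.28. That fit left 1 adenocarcinoma, whose spread is taken to be that of the other groups. Within library series 5289, with 2 of those adenocarcinomas, the difference was 0.72 (adjusted p = 4.36e-08). The 9 carcinosarcomas ran from -0.14 to 0.22 with a median of -0.02, and their difference from sarcomatoid tumours did not pass (-0.10, adjusted p = 0.541, with 5.62% of genes called). In KP, 10 sarcomatoid tumours ran from -0.17 to 0.01 and 6 adenocarcinomas from -0.23 to 0.00, the sets overlapped, and the difference of 0.04 did not pass (adjusted p = 0.919, with 1.89% of genes called). The Hras difference between KB1(L1363P)P and KP in this histology contrast was 0.53 ± 0.13 (SE, limma adjusted p = 0.0245, with 2.04% of genes called). The median of all genes for it was 0.11. Without KB1(L1363P)P replicate 7 the Hras value was 0.48 and no longer passed (limma adjusted p = 0.0788). The 10 KP sarcomatoid tumours were all of library series 5750, and the 6 KP adenocarcinomas of series 5289 or 5490. Histology thus cannot be told apart from library series in KP, nor in this difference between the genotypes.

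The 3 KB1(L1363P)P adenocarcinomas were also low in Hras beside adenocarcinomas of other genotypes, on tests that did not pass over all genes. Their mean of -0.68 ± 0.25 (SD, n = 3) stood against -0.11 ± 0.36 in KB1P (n = 29), -0.05 ± 0.33 in KB2P (n = 25) and -0.10 ± 0.11 in KP (n = 6). All 3 values were below all 6 KP values, and they overlapped those of KB1P and KB2P. The limma differences were -0.57, -0.63 and -0.57 against KB1P, KB2P and KP, with adjusted p of 0.414, 0.226 and 0.78. In each of these comparisons 0.0% of all genes were called, and 1815, 1851 and 2173 genes had an unadjusted p under 0.05. Two-sided exact permutation tests of Hras alone gave unadjusted p of 0.0214, 0.011 and 0.0238, the last being the smallest that 3 against 6 tumours can give. The median of all genes differed by -0.16, -0.14 and -0.12 in these comparisons, and after subtraction of the autosomal median of every tumour the Hras differences were -0.53, -0.60 and -0.60. Over the 4 genes 0 of 24 limma tests between adenocarcinomas passed, and 6 had an unadjusted p under 0.05, 3 of Hras and 3 of Nras. Of all genes 1.03% were called in KB1P minus KP, 0.0529% in KB2P minus KP and 0.138% in KB1P minus KB2P. The losses behind them had different lengths: 10.7 Mb in replicate 19 and the whole chromosome in replicate 7, and replicate 21 had no call.

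Braf, the Raf kinase of the set, was gained together with long parts of chromosome 6. Its segment values ran from -0.10 to 1.04 with a median of 0.00 in KB1(L1363P)P, from -1.22 to 0.85 with a median of 0.32 in KB1P, from -0.28 to 0.60 with a median of 0.04 in KB2P, and from -0.84 to 0.74 with a median of 0.02 in KP. The group means were 0.06 ± 0.22, 0.22 ± 0.36, 0.13 ± 0.20 and 0.04 ± 0.35 in that order. The KB1P values were the highest group on the median, and all groups overlapped. By limma KB1(L1363P)P was 0.16 below KB1P (-0.16 ± 0.08, SE, adjusted p = 0.16, with 13.5% of genes called) and KB1P was 0.18 above KP (0.18 ± 0.09, SE, adjusted p = 0.159). Without the tumours titled KB1PM and the 1 with the other description they were -0.09 (adjusted p = 0.564) and 0.11 (adjusted p = 0.52). Without KB1P replicate 11 both passed, at -0.21 (adjusted p = 0.0328) and 0.23 (adjusted p = 0.0299). Within library series 5289 the differences were -0.18 (adjusted p = 0.262) and 0.70 (adjusted p = 0.0228, with 3 KP tumours). These 3, KP replicates 1, 2 and 3, had Braf at -0.50, 0.00 and -0.84, and so held both KP losses of Braf.

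KB1P replicate 11 held the lowest Braf value, -1.22, in a run of 5.91 Mb with 170 placed genes from Creb3l2 to Olfr47. Its chromosome 6 had a median of 0.28, below the level of a gain call, with 5.9% of its placed genes called as gains and 21.9% as losses. Met was at 0.46 and called as a gain. The other 2 Braf losses, in KP replicates 1 and 3, had values of -0.50 and -0.84 and runs of 129.0 and 29.2 Mb. The 23 Braf gains had runs of 28.9 to 146.0 Mb with a median of 107.0 Mb, and 9 of them covered over 90% of the chromosome. None was focal. The highest Braf value, 1.04 with a copy score of 4, was in the carcinosarcoma KB1(L1363P)P replicate 15.

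Nf1, the Ras inhibitor, moved with its neighbours on chromosome 11. Its values ran from -0.23 to 0.15 with a median of 0.00 in KB1(L1363P)P, from -0.54 to 0.68 with a median of 0.00 in KB1P, from -0.78 to 0.90 with a median of 0.00 in KB2P, and from -0.18 to 0.51 with a median of 0.00 in KP. The ranges were wider in KB1P and KB2P, and the means lay between 0.00 and 0.06 in all 4 groups. None of the 6 genotype differences passed (limma adjusted p from 0.63 to 0.996). Nf1 had the same segment value as Trp53 in 81 of 98 tumours and as Brca1 in 67 of 98, and 10 of its 15 gains and 6 of its 8 losses were shared with Trp53. In 2 KB1P tumours the genes had opposite calls: replicate 13 had Nf1 at -0.42 and Trp53 at 0.55, and replicate 31 had Nf1 at -0.54 and Trp53 at 0.37. The KP tumour with a gain, replicate 7, had Nf1 and Trp53 both at 0.51 and Brca1 at -0.85.

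A run of at most 10 Mb is called focal here, a run over 50% of the chromosome broad, and any other intermediate. Of the 84 calls at the 4 genes, 8 were focal, 42 intermediate and 34 broad. Among the gains 5 of 51 were focal, and among the losses 3 of 33, while over all genes 9.97% of gain calls and 5.19% of loss calls were on focal runs. For gains the focal share at the 4 genes was near that background, and for losses it was above it, on only 3 calls. Hras held 4 of the 8, with gains in KB1P replicate 27 (0.33, 6.07 Mb), KB2P replicate 7 (0.54, 8.05 Mb) and KB2P replicate 23 (0.54, 5.68 Mb), and a loss in KB2P replicate 24 (-0.50, 6.73 Mb). The run in KB2P replicate 7 ended at Ccnd1, the gene of cyclin D1, and the other 3 went on to the last placed gene. The Nras stretch of KP replicate 7 and the Braf loss of KB1P replicate 11 were 2 more, and Nf1 held the remaining 2, both in KB1P.

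The shortest change of all was the Nf1 loss in KB1P replicate 13, which covered 1.26 Mb with 28 placed genes from Gm23219 to Crlf3 at -0.42, just past the level of a loss call. The chromosome's median in that tumour was 0.01. The focal Nf1 gain, in KB1P replicate 27, had a value of 0.42 in a run of 9.94 Mb, just inside the limit of 10 Mb. Just outside it lay the Hras losses of KP replicate 3 (10.2 Mb), KB2P replicate 16 (10.4 Mb) and KB1(L1363P)P replicate 19 (10.7 Mb), and the highest Nf1 value of all, 0.90 in KB2P replicate 8 (11.0 Mb). In KB2P replicate 8, Trp53 was at 0.00 and Brca1 at -0.01. In KB1P replicate 11 the Nf1 gain of 0.42 began at Nf1 itself and ran 42.5 Mb to the end of the chromosome.

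**Figure D4:**
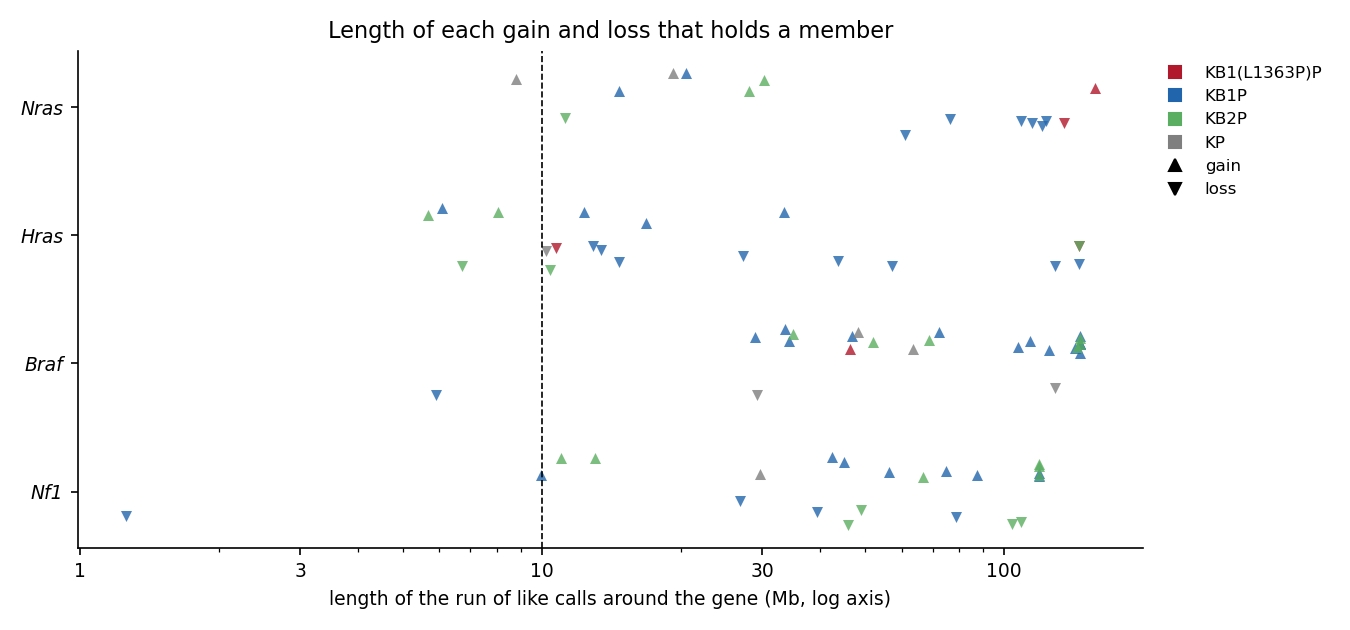
Length in Mb (log axis) of the run of gains (upward triangles) or losses (downward triangles) around each gene, 1 point per call, coloured by genotype. The dashed line marks 10 Mb, and 8 of the 84 points lie to its left.

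Met and Yap1 amplification was taken as a segment value of at least 1. Met was amplified in 12 tumours, 7 KB1(L1363P)P and 5 KP, and in 0 KB1P and 0 KB2P tumours. Yap1 was amplified in 26 tumours, 12 KB1(L1363P)P, 2 KB1P, 1 KB2P and 11 KP, and 2 tumours had both. Braf was gained in 3 of 12 Met-amplified tumours, against 20 of 86 others, and lost in 2 of 12, against 1 of 86. By Fisher's exact test neither passed over all genes (adjusted p = 1.0 for gains, with 0.108% of genes called, and 0.338 for losses, with 1.61% called). The difference in Braf gains was 1.7 percentage points, and it was 47.8 points (adjusted p = 7.71e-05) when any gain of Met counted in place of amplification. Both genes lie on chromosome 6 and had the same segment value in 63 of 98 tumours, so that setting cannot tell co-occurrence from a shared segment. Of the 23 Braf gains 17 were in tumours with a Met gain. Within series 5289 Braf was lost in 2 of 6 Met-amplified tumours, against 0 of 27 others, with an unadjusted exact p of 0.0284, and both were KP tumours. Within KP, Braf was lost in 2 of 5 Met-amplified tumours, against 0 of 13 others, and gained in 2 of 5, against 0 of 13 (unadjusted exact p = 0.0654 for each). Within KB1(L1363P)P it was gained in 1 of 7 Met-amplified tumours, against 0 of 17 others (unadjusted exact p = 0.292). All Braf gains without Met amplification were in KB1P (14) and KB2P (6), the genotypes with no Met amplification. The pooled counts thus mix genotype with Met amplification.

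The Met amplicon did not reach Braf in any of the 12 tumours. The stretch with segment values of at least 1 around Met ended between 0.859 and 13.9 Mb past the start of Met, which left 8.27 to 21.3 Mb to the start of Braf. In those tumours Met was between 3.25 and 5.44. Braf was at 1.04 in KB1(L1363P)P replicate 15, 0.74 in KP replicate 6 and 0.71 in KP replicate 8, which were its 3 gains. It was at -0.84 in KP replicate 3 and -0.50 in KP replicate 1, its 2 losses. In the other 7 it lay between -0.10 and 0.27. In each of these 3 gains a single run of gained genes held both Met and Braf, of 46.3 Mb in KB1(L1363P)P replicate 15, 48.3 Mb in KP replicate 6 and 63.5 Mb in KP replicate 8. In KB1(L1363P)P replicate 15 there was a segment at 0.87 just past the Met stretch. Over all 98 tumours the 2 genes had the same segment value in 63 and values within 0.1 of each other in 71. The correlation of their values was r = 0.02 (n = 98 tumours of different library series, for 2 genes of 1 chromosome). That r takes in the 12 tumours with Met between 3.25 and 5.44, and r without them was not computed.

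**Figure D5:**
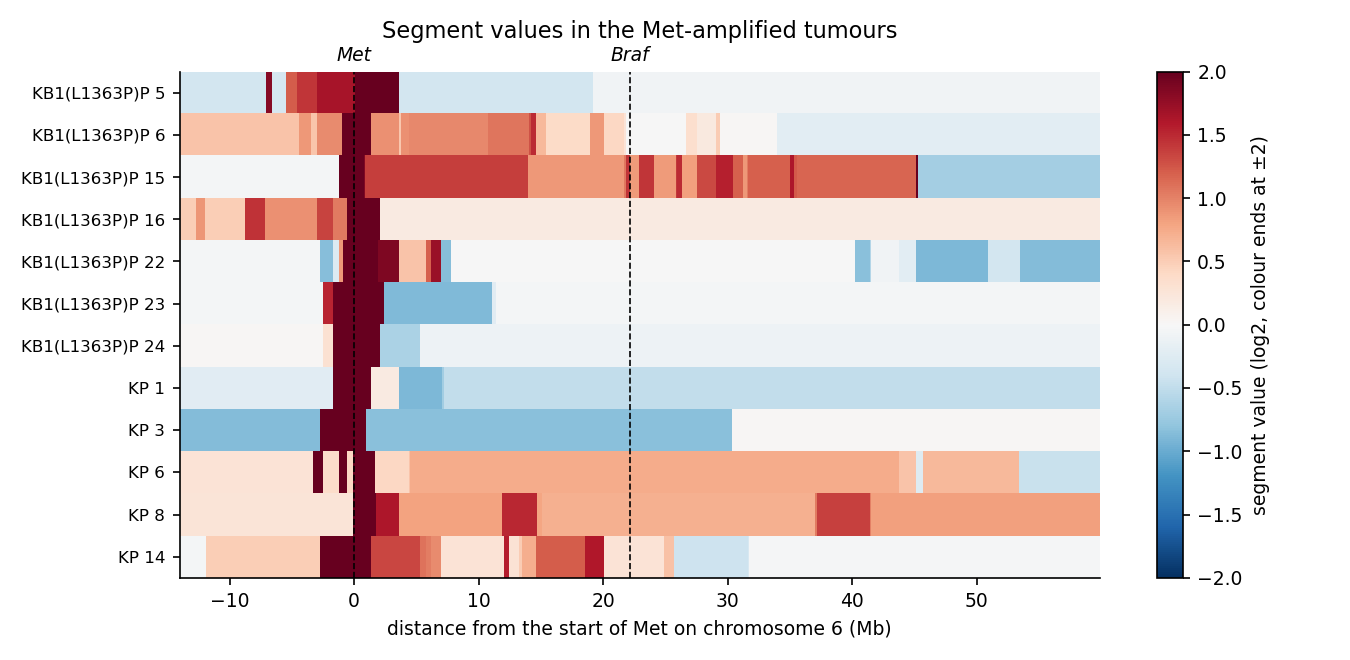
Segment values (colour, ends at ±2) on chromosome 6 around Met in the 12 tumours with Met amplification, against the distance from the start of Met in Mb, with dashed lines at Met and Braf. The raised stretch at Met ends before Braf in all 12 rows, and Braf lies in gained segments in 3 rows and in lost segments in 2.

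Yap1-amplified tumours had few calls at the 4 genes. Braf was gained in 1 of 26 of them, against 22 of 72 other tumours (difference -26.7 percentage points, adjusted p = 0.0502), and Nf1 in 0 of 26, against 15 of 72 (-20.8 points, adjusted p = 0.0664), in a comparison where 11.2% of all genes were called for gains. The Braf difference was -36.4 points and passed for changes beyond 0.2 (adjusted p = 0.00416), was -26.1 points and passed for amplification of at least 2 (adjusted p = 0.0394), and turned to 4.6 points when any Yap1 gain counted (adjusted p = 1.0). For losses, 23.4% of genes were called and none of the 4. Most Yap1-amplified tumours were KB1(L1363P)P or KP, the genotypes with few calls over all genes, and within genotypes no test had an unadjusted exact p under 0.05. Most were also sarcomatoid, a histology in which 1.35% of values over all genes were gains and 0.262% losses. The pooled counts thus mix Yap1 amplification with genotype and histology. Within series 5289, Braf was gained in 0 of 14 Yap1-amplified tumours, against 5 of 19 others (unadjusted exact p = 0.0574). Nras was gained in both tumours that had Met and Yap1 amplified, KB1(L1363P)P replicate 16 (0.36) and KP replicate 3 (0.58). These gains were not particular to Nras, with runs of 1611 placed genes, the whole chromosome, and of 435 placed genes. How many of all genes were gained in both tumours was not counted. KP replicate 3 also had the losses of Hras (-0.87) and Braf (-0.84). KP replicate 7, with the Nras stretch at 2.72, had neither amplification, with Met at -0.08 and Yap1 at -0.83. Among the 62 tumours with neither, Braf was gained in 19, Nf1 in 15, Nras in 5 and Hras in 4.

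Nras, Hras and Braf pass the signal on and Nf1 restrains it, so gains of the first 3 and losses of Nf1 were also counted together, as a description of copy number. A gain of at least 1 of the 3 genes was present in 2 of 24 KB1(L1363P)P, 17 of 31 KB1P, 9 of 25 KB2P and 4 of 18 KP tumours. The mean share of tumours with a gain of a single gene was 2.08%, 18.2%, 17.9% and 2.44% in that order. A count over 3 genes on different chromosomes runs higher than a share for 1 gene, so the 2 cannot be set directly against each other. A loss of Nf1 was present in 0, 4, 4 and 0 tumours in the same order. Both were present in 3 tumours, all KB1P, and either in 37 of 98. The segment values of the 4 genes were nearly unrelated to each other across tumours, with r between -0.08 and 0.16 over 98 tumours for the 6 pairs. The gene on another chromosome most like Nras was Rassf8 on chromosome 6 (r = 0.52), and that most like Nf1 was Oprm1 on chromosome 10 (r = 0.52). For Hras 4 genes tied at the highest r, among them Fign on chromosome 2 (r = 0.50), and for Braf 2 genes tied, among them Adamts8 on chromosome 9 (r = 0.47). These correlations are descriptions over the same 98 tumours.

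Among 39 other genes of the pathway (Ras family GTPases, exchange factors and adaptors, GTPase activators and other inhibitors, and Raf, MEK and ERK kinases), few differed between genotypes by limma. None was called between KB1(L1363P)P and KP, where 0.0% of all genes were, and none between KB1P and KB2P, where 1.36% were. Between KB1(L1363P)P and KB1P 3 were lower (7.69% of the list against 13.5% of all genes), and between KB1P and KP 1 was higher and 2 lower (7.69% against 13.5%). Between KB1(L1363P)P and KB2P 2 were higher and 1 lower (7.69% against 12.8%), and between KB2P and KP 1 was higher and 3 lower (10.3% against 12.0%). The list's median difference was within 0.05 of 0 in all 6 comparisons, as was that of all genes. In adenocarcinomas alone 0 of the 39 were called in each of the 6 comparisons by limma, and 0 to 2 had an unadjusted p under 0.05.

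Gab1, a docking protein upstream of Ras, was lower in KB1P (-0.29) and KB2P (-0.38) than in KP and higher in KB1(L1363P)P than in KB2P (0.30). Map2k2, a MEK kinase, was lower in KB2P than in KP (-0.34) and higher in KB1(L1363P)P than in KB2P (0.31). The adaptor Grb2 (-0.30) and the GTPase Ralb (-0.20) were lower in KB1(L1363P)P than in KB1P. The inhibitors Dusp6 (-0.26 in KB1P) and Spry2 (-0.39 in KB2P) were lower than in KP. The limma adjusted p of these calls lay between 0.00285 and 0.0412.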

How the data were processed

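Low-coverage DNA sequencing of 98 tumours and 3 spleens was used, each with a column in 3 deposited matrices. Per the labels' protocols, the authors counted aligned reads per bin of 20 kb and corrected these counts for GC bias and mappability. The submitters' processing notes list BWA 0.7.17, Picard, SAMtools 1.10 and cutadapt 2.5 and build mm10, although the protocol text names a human build. The authors deposited, for each gene, a log2 ratio, a log2 segment value and a copy score, a whole number with 2 as neutral. How segments were called, what the ratios refer to and how bins became gene values is not given in the sources used here, and the read depth is unknown. Gene values span whole genes and do not check the engineered parts of Trp53, Brca1 and Brca2.

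Gene positions are those of GRCm38.p6 in RefSeq: 32661 symbols matched as written, 30 through an older symbol, and 10822 had no position. In R 4.3.3, limma 3.58.1 tested the segment values of 43513 genes, and Fisher's exact test the gain and loss frequencies of the same genes, with Benjamini-Hochberg adjustment at 0.05. Permutation tests used all arrangements or 100000 resamples. Tables were read with pandas 2.3.3 and version 1.17.8 of data.table, and exact tests and plots were made in Python 3.11.15 with SciPy 1.17.1, matplotlib 3.10.9 and NumPy 2.4.6. The methods were tested on simulated data. Neighbouring genes share segments, and p-values measure only the spread between these tumours. The 4 genes, the pathway list of 39 genes, the thresholds and the tests were chosen with earlier results of these data known. The text names the 4 genes, Met, Yap1, Trp53 and Brca1, up to 8 called pathway genes per genotype comparison, the most alike gene on another chromosome, and tumours with a focal or large change or Met amplification. A called gene of the pathway list is not reported here. A KB1P tumour whose description names another model and 10 titled KB1PM kept their genotype label. Chosen after seeing the data were the fits within library series 5490, those within 5289 for adenocarcinomas and for call frequencies, those without each tumour or without KP replicate 7, the histology fits with shared title numbers as a block or 1 tumour per number, and call frequencies without the KB1PM titles.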

Additional observations from a re-analysis of the deposited data

Results flagged for a closer look

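In 12 sets of a gene with 6, 9 or 10 tumours of 1 genotype and histology, 8 values stood far from the other tumours of their set by Dixon's criterion, which chance meets in about 1 of 20 sets. Segment values of many tumours lie close to 0, so small values can meet it. In KP adenocarcinomas (n = 6) replicate 7 had Nras at 2.72, with the next tumour at 0.06, and Nf1 at 0.51, with the next at 0.04. In KP sarcomatoid tumours (n = 10) replicate 14 had Braf at 0.27, with the next at 0.07, and replicate 12 had Nf1 at 0.24, with the next at 0.07. In KB1(L1363P)P carcinosarcomas (n = 9) replicate 15 had Braf at 1.04, with the next at 0.04, and replicate 23 had Hras at 0.22, with the next at 0.00. In the same set replicate 11 had Nf1 at 0.13, with the next at 0.05, and replicate 5 had the lowest Nras at -0.07, with the next at -0.02. Of these 8, the Nras and Nf1 values of KP replicate 7 and the Braf value of KB1(L1363P)P replicate 15 were gain calls.

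The Hras difference between sarcomatoid tumours and adenocarcinomas was larger in KB1(L1363P)P than in KP by 0.53 on the log2 scale (limma interaction term, adjusted p = 0.0245). It rests on 3 KB1(L1363P)P adenocarcinomas, and without replicate 7 it was 0.48 (adjusted p = 0.0788). Without the first tumour of each shared title number it was 0.54 (limma adjusted p = 0.021), and without the second it was 0.24 with 1 adenocarcinoma left. In KP the sarcomatoid tumours and the adenocarcinomas were of different library series, so this term cannot be told apart from series.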

How the results depend on the processing

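The replicate numbers follow only the order of the samples and pair nothing. Titles of KB1(L1363P)P give 3 pairs of tumours 1 number each, and with that number as a replicate block (consensus correlation 0.104) the Hras difference by histology was 0.57 (adjusted p = 0.000124) and its interaction 0.53 (adjusted p = 0.0218), with 2 tests called as before. With the first tumour of each pair left out they were 0.58 (adjusted p = 0.000222) and 0.54 (adjusted p = 0.021), again with 2 tests called. With the second left out they were 0.28 and 0.24 with 1 adenocarcinoma left. Over 24 member tests between genotypes, limma called 0 in all tumours and 2 on copy scores (Braf 0.20 and Nras -0.23, KB1P minus KP). It called 1 with tumours centred on their autosomal median (Nras -0.30) and 1 of 12 within series 5289 (Braf 0.70, KB1P minus KP). That last call set KB1P against 3 KP tumours, 2 of them with a Braf loss. Without the tumours titled KB1PM and the 1 with the other description, Braf was -0.09 in KB1(L1363P)P minus KB1P and 0.11 in KB1P minus KP, and 0 frequency tests passed (Braf -25.8 points, Nf1 -30.0, KB1(L1363P)P against KB1P). Leaving out 1 tumour gave -0.21 to -0.14 for Braf in KB1(L1363P)P minus KB1P, 0.13 to 0.23 for Braf and -0.30 to -0.12 for Nras in KB1P minus KP, where the Nras call appeared without KB1P replicate 4 (adjusted p = 0.0373), and -0.20 to -0.03 for Nras in KB1(L1363P)P minus KP. Set against limma's unadjusted p, permutation gave p = 0.059 for Braf at -0.16 (KB1(L1363P)P minus KB1P), and for KB1P minus KP 0.106 for Braf at 0.18 and 0.051 for Nras at -0.27.

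In adenocarcinomas 0 of 24 tests passed, and 0 under each alternative in which calls were counted. There Nras in KB1P minus KP was -0.54 (exact permutation p = 0.0883), ran from -0.66 to -0.09 with 1 tumour left out, and turned to 0.04 within series 5289. Hras ran from -0.72 to -0.48, -0.71 to -0.47 and -0.77 to -0.53 against KP, KB1P and KB2P. By histology 2 of 20 tests passed, and 1 without KB1(L1363P)P replicate 7, when the Hras interaction was 0.48; with 1 of the 3 KB1(L1363P)P adenocarcinomas left out it ran from 0.44 to 0.68. For sarcomatoid minus adenocarcinoma, Nras in KP was -0.45 and turned to 0.00 without KP replicate 7, and Nras in KB1(L1363P)P ran from 0.06 to 0.46 with 1 of the 3 left out and was called within series 5289 (0.43, adjusted p = 0.0167) and without KP replicate 7 (0.31, adjusted p = 0.0215).

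Of the frequency tests 2 passed, and 0 in adenocarcinomas or within series 5289, where Braf differed by -48.3 and -35.0 percentage points and Nf1 by -27.6 and -10.0 (KB1(L1363P)P against KB1P). For co-occurrence 0 of 16 tests passed, and 1 in each of 3 alternatives: with Yap1, Braf gain at -36.4 points for changes beyond 0.2 and at -26.1 for amplification of at least 2; with Met, Braf gain at 47.8 points when any gain counted as amplification. Under that last setting Braf gain with Yap1 turned to 4.6 points. Its Met result cannot be told apart from segments that Met and Braf share on chromosome 6. The count of 8 focal calls was 1 at 3 Mb and 21 at 20 Mb, and 8 with changes beyond 0.2. The cause of these changes was not tested beyond the fewer tumours or the looser definition each setting brings. Depth is unknown, and the number of tumours per group limits precision.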
